A study of Mus musculus with 39 samples.

Results

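Oral antibiotics were compared with plain water in the duodenum of mice that had received leptin into a brain ventricle. The comparison held 12 of the 39 libraries of the series, 6 labelled Leptin-antibiotic (replicates 1 to 6) and 6 labelled Leptin-water (replicates 8 to 13), and took in all genes of the deposited counts. The other 7 Leptin-water libraries carry names of another kind and were left out, since no antibiotic library is among them. Every mouse behind these libraries was a wild-type C57BL/6 male of 8 weeks with a cannula in the lateral ventricle, deprived of food for 2 h, injected 3 days after placement of the cannula with 3 µg of leptin and killed 2 h later. Leptin-antibiotic mice had 48 h of drinking water with 1 g/L ampicillin and 0.5 g/L neomycin before the injection, and Leptin-water mice drank water. The same antibiotics were compared with water in 6 Saline-antibiotic and 6 Saline-water libraries, from mice treated alike but injected with saline. The labels number the libraries without stating that each is a separate animal, so p-values measure the spread between these samples.

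Ampicillin acts on the bacterial cell wall and neomycin on the bacterial ribosome, and neomycin is poorly absorbed from the gut. The duodenum takes up sugars, amino acids, lipids, calcium and other minerals through enterocytes of the villus, which also oxidise, hydrolyse and conjugate foreign compounds. Its epithelium secretes antimicrobial lectins of the Reg3 family, whose expression in the gut is known to depend on resident bacteria. Leptin, a hormone of fat cells, reports energy stores to the hypothalamus.

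Antibiotic-treated leptin mice had lower levels of Cyp2c55, Ces2a and Gstm1, enzymes of drug metabolism, and of S100g, a calcium-binding protein. Higher levels were more frequent and mostly smaller, and included Apoc3 of chylomicrons, the amino acid exchanger Slc7a8 and the trehalase gene Treh. Of 16340 genes tested with edgeR's quasi-likelihood F test at a Benjamini-Hochberg adjusted p of 0.05, 346 passed (2.12%), of which 288 were higher (1.76%) and 58 lower (0.355%) with antibiotic. All adjusted p-values for single genes come from this test in a fit of 24 libraries, 12 of them from saline mice, unless another fit is named. In whole tissue, fewer cells of a type and less RNA per cell cannot be told apart. The median log2 fold change was 0.37 among the higher genes and −0.53 among the lower ones, against −0.01 over all genes, and 19 higher and 10 lower genes changed by at least 1 on the log2 scale. At an unadjusted p of 0.05, 3050 genes passed. Without overlap between the 6 and 6 libraries were 465 genes (2.85%), 341 higher (2.09%) and 124 lower (0.759%), and 195 of these were among the 346. The number called rested on single libraries: it was 66 without Leptin-water 9, 71 without Leptin-water 8, 87 without Leptin-antibiotic 2, 111 without Leptin-water 11 and 132 without Leptin-antibiotic 3. Of 79 genes named here that passed, 31 passed with each of the 12 libraries left out in turn, among them Car8, Apoc3, Cyp4b1, Faah, Slc7a8 and Treh. With Leptin-water 9 left out 46 of the 79 did not pass, and with Leptin-water 12 left out all did. A fit of only the 12 leptin libraries added calls and also lost some. Of the 79, Rbp2, Slc2a7, Slc3a2, Apol9a, Apol9b, Mblac2, Sdhc, Atp5h and Ndufs7 did not pass in it. Gstm1, Rbp2, Cyp2u1 and Ndufs7 each did not pass in 13 of 21 alternative fits, Dgat1 in 14 and Slc2a7 in 15. Upper quartile scaling called 225 genes, 62.7% of them higher against 83.2% with TMM scaling, and all 346 genes kept their sign under it. The TMM factors, which multiply library totals before CPM are taken, did not overlap between the groups. They were 0.9057 to 0.9754 in Leptin-antibiotic and 0.9768 to 1.074 in Leptin-water. Their part in the excess of higher genes was not tested.

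**Figure D1:**
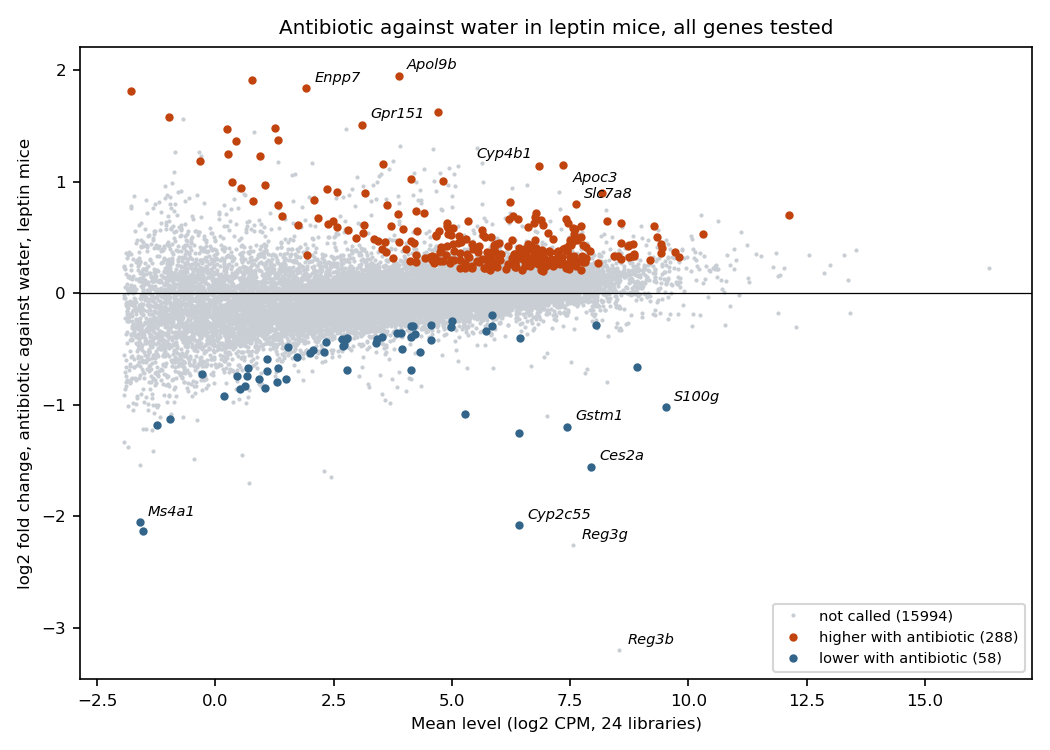
Log2 fold change of antibiotic against water in leptin mice (vertical axis) against mean log2 CPM (library-scaled counts) over 24 libraries (horizontal axis), 1 point per gene. The 288 higher genes lie mostly at small positive values, with a median of 0.37, and Cyp2c55, Ces2a, Gstm1 and S100g lie apart at values under −1. Reg3b and Reg3g lie lower still but did not pass.

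Libraries held 39016590 to 67870777 counts (median 47327539), and the ribosomal precursor Rn45s took 2.87% to 10.1% of them in Leptin-water and 6.08% to 11.6% in Leptin-antibiotic. No 2 libraries of a group held identical values. The villus enterocyte list was detected in full (18 of 18 members) at a mean of 9.13 to 9.85 log2 CPM, whereas 4 of 8 distal ileum markers were measured, at 3.35 to 4.05. Markers of neighbouring tissue differed between libraries of the same group. The exocrine pancreas list had a mean of 5.47 log2 CPM in Leptin-water 10 and 6.19 in Leptin-antibiotic 3, against −0.18 to 3.18 in the other 10 libraries, where Cela3b, Cpa1, Prss2 or Amy2b was at 0 in some. The stomach and Brunner gland list ranged from 5.91 to 6.94 in Leptin-water and from 3.31 to 7.72 in Leptin-antibiotic. Without the libraries high in pancreas genes 210 genes were called, 158 of them among the 346.

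**Figure D2:**
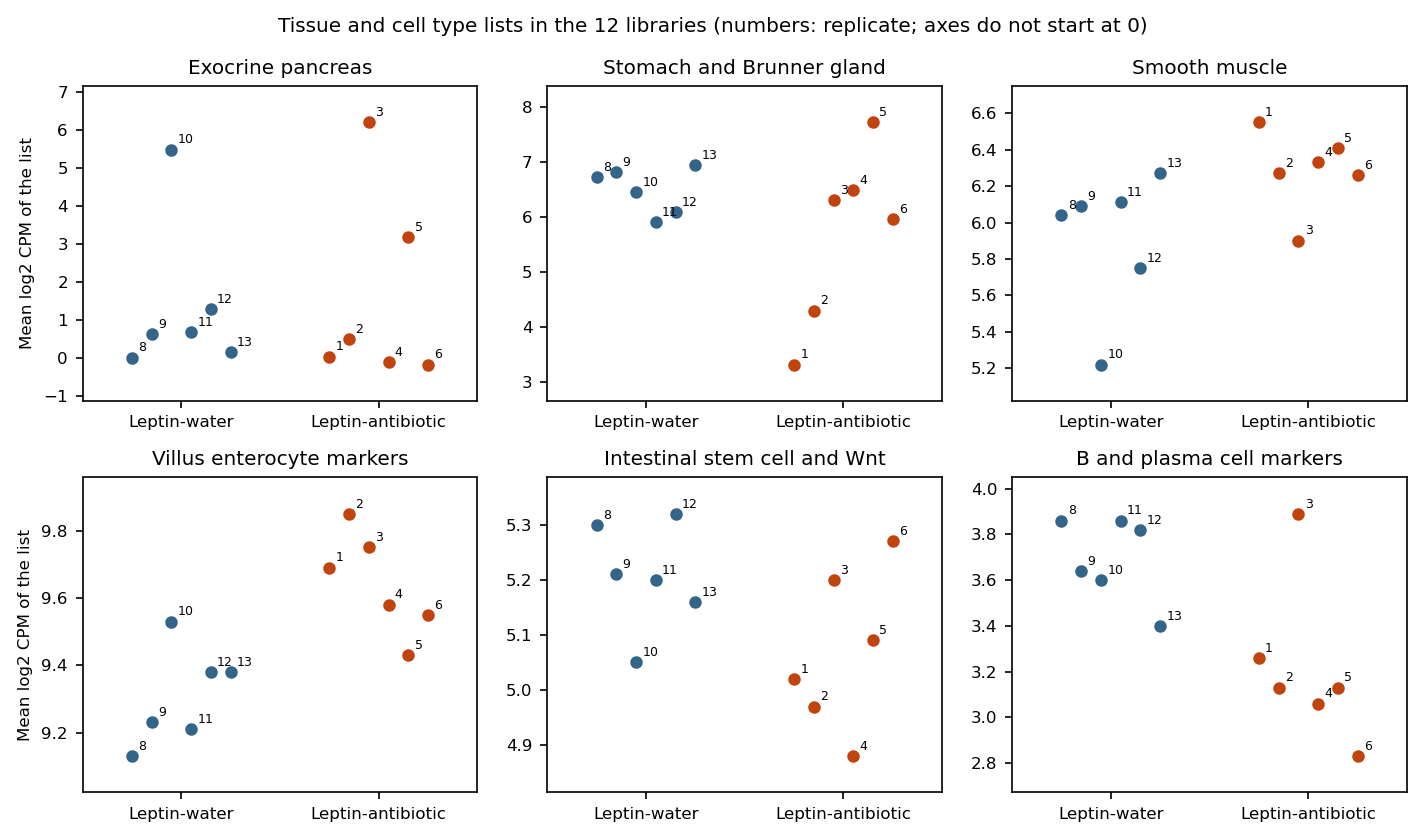
Mean log2 CPM of 6 tissue and cell type lists (vertical axes, not starting at 0) in each Leptin-water and Leptin-antibiotic library, marked by replicate number. Leptin-water 10 and Leptin-antibiotic 3 stand apart in pancreas genes, and the villus list spans 9.13 to 9.53 with water and 9.43 to 9.85 with antibiotic.

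Enzymes of drug metabolism and the calcium-binding protein S100g made up the largest decreases. Cyp2c55, a cytochrome P450 of the intestine (GRCm38 chromosome 19, 39007019 to 39042693, plus strand), had 109, 143 and 209 CPM as lowest, median and highest Leptin-water library and 27.1, 36.1 and 46.2 CPM in Leptin-antibiotic. Every antibiotic library lay below every water library, and the 2 groups were separated by more than the range within the antibiotic group. The log2 fold change was −2.08 (SE 0.36, adjusted p = 0.00512), a 4.22-fold lower level. Ces2a, a carboxylesterase that hydrolyses esters of drugs and lipids (chromosome 8, 104734003 to 104741634, plus strand), had 319, 368 and 534 CPM with water and 117, 140 and 164 CPM with antibiotic. These groups did not overlap either (log2 −1.55, SE 0.26, adjusted p = 0.00381). S100g, the calbindin that carries calcium through the enterocyte (chromosome X, 162961992 to 162964599, minus strand), had 870, 963 and 1464 CPM with water and 371, 523 and 622 CPM with antibiotic. It fell by 1.02 on the log2 scale (SE 0.17, adjusted p = 0.00331), again without overlap, and the 3 genes passed with each of the 12 libraries left out in turn.

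The promoters of these 3 genes are shown because the genes fell together in both leptin and saline mice. They are the 250 bases before the annotated start, from RefSeq on GRCm38.p6, read 5′ to 3′ in the direction of transcription. Capitals mark matches on either strand to any of 4 motifs, which did not overlap here. They were the TATA box in the form TATAAA, a half-site of nuclear receptors in the form AGGTCA, a related half-site in the form AGTTCA, and a site of the HNF4 type in the form CAAAGTCCA.
S100g, chrX:162964600-162964849, minus strand: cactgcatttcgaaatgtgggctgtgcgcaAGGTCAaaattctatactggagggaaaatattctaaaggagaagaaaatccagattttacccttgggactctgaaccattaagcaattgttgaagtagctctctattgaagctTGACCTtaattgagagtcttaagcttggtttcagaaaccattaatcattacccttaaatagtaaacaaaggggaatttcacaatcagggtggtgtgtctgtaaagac
Ces2a, chr8:104733753-104734002, plus strand: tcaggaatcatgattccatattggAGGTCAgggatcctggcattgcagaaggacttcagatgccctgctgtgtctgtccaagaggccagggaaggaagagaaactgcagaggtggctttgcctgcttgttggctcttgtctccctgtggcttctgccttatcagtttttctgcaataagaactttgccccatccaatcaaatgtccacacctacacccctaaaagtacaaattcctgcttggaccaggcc
Cyp2c55, chr19:39006769-39007018, plus strand: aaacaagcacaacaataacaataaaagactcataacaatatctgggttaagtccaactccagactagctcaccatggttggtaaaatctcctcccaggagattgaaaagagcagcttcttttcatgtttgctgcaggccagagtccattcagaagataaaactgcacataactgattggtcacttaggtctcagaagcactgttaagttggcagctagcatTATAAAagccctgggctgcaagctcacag
AGGTCA stood 220 and 107 bases before the start in S100g, the second on the opposite strand, and 226 bases before it in Ces2a. TATAAA stood 29 bases before the start of Cyp2c55. Among 32851 RefSeq promoters of this length, 14.0% held AGGTCA and 12.4% TATAAA. Among 59 promoters of 43 lower genes, 13.6% held AGGTCA and 11.9% TATAAA, and among 298 promoters of 230 higher genes the shares were 13.8% and 5.03%. CAAAGTCCA was in 0.384% of all promoters, in 1 of the 59 and in 2 of the 298. AGTTCA was in 11.8% of all promoters, 8.47% of those of lower genes and 10.1% of those of higher genes. Of the promoters of genes tested, 7.55% held TATAAA, 11.6% AGGTCA, 9.15% AGTTCA and 0.457% CAAAGTCCA. A match is a description of the sequence and not of binding.

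Other genes of drug metabolism moved in both directions. Of 18 measured members of the Cyp2 and Cyp3 list, Cyp2c55 fell and Cyp2u1 rose, where 1.76% of all genes rose and 0.355% fell. In that list 9 had positive and 9 negative values, and the median was −0.002 against −0.01 for all genes. Cyp3a11, the main Cyp3a enzyme of mouse intestine and liver, had 1378, 1626 and 2284 CPM with water and 736, 979 and 1064 CPM with antibiotic. These groups did not overlap, and the test was missed in the fit of 24 libraries (log2 −0.89, adjusted p = 0.0571) and passed when only the 12 leptin libraries were fitted (adjusted p = 0.00282). Its relative Cyp3a59 had a value of −0.73 (adjusted p = 0.0599). Of 25 carboxylesterases and conjugation enzymes, Ces2a and the glutathione transferase Gstm1 fell and the sulfotransferase Sult2b1 rose. Gstm1 (chromosome 3, 108012255 to 108017973, minus strand) had 171, 239 and 382 CPM with water and 92.1, 117 and 139 CPM with antibiotic, without overlap (log2 −1.20, adjusted p = 0.0396). Its call was lost with 11 of the 12 libraries left out, all but Leptin-water 12. The call was also lost without the libraries high in pancreas genes (log2 −1.12, adjusted p = 0.128). With the means of the pancreas, stomach and smooth muscle lists as covariates Gstm1 had −0.81 and did not pass (adjusted p = 0.194). Ces2b, next of kin to Ces2a, had a value of −1.10 without overlap (adjusted p = 0.076, and 0.0121 with the 12 libraries alone), and Gstm3 a value of −0.79 (adjusted p = 0.122). Reads shared between near-identical genes of the Cyp2c, Cyp3a, Ces2 and Gstm families make their single values uncertain.

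Of 8 measured calcium and vitamin D genes 1 rose and 1 fell, and of 19 bicarbonate, acid and ion transport genes 1 rose and 1 fell, against 1.76% higher and 0.355% lower of all genes. Besides S100g, the calcium and vitamin D list held Trpv6, the apical calcium channel, at a value of −0.67 (adjusted p = 0.147), and Atp2b1, the basolateral calcium pump, at −0.29 (adjusted p = 0.155). Rbp2, which carries retinol in the enterocyte, rose from 1153 ± 205 to 1668 ± 406 CPM (SD, n = 6; log2 0.53, adjusted p = 0.0488). Car4, a membrane carbonic anhydrase (chromosome 11, 84957786 to 84966044, plus strand), had 15.7, 19.4 and 21.7 CPM with water and 27.9, 36.3 and 55.0 CPM with antibiotic. These did not overlap (log2 1.00, SE 0.20, adjusted p = 0.0127). Car8, a relative without catalytic activity, had 20, 22.4 and 23.7 CPM with water and 13.1, 15.3 and 18.9 CPM with antibiotic, so that it moved the opposite way (log2 −0.52, SE 0.10, adjusted p = 0.00512).

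**Figure D3:**
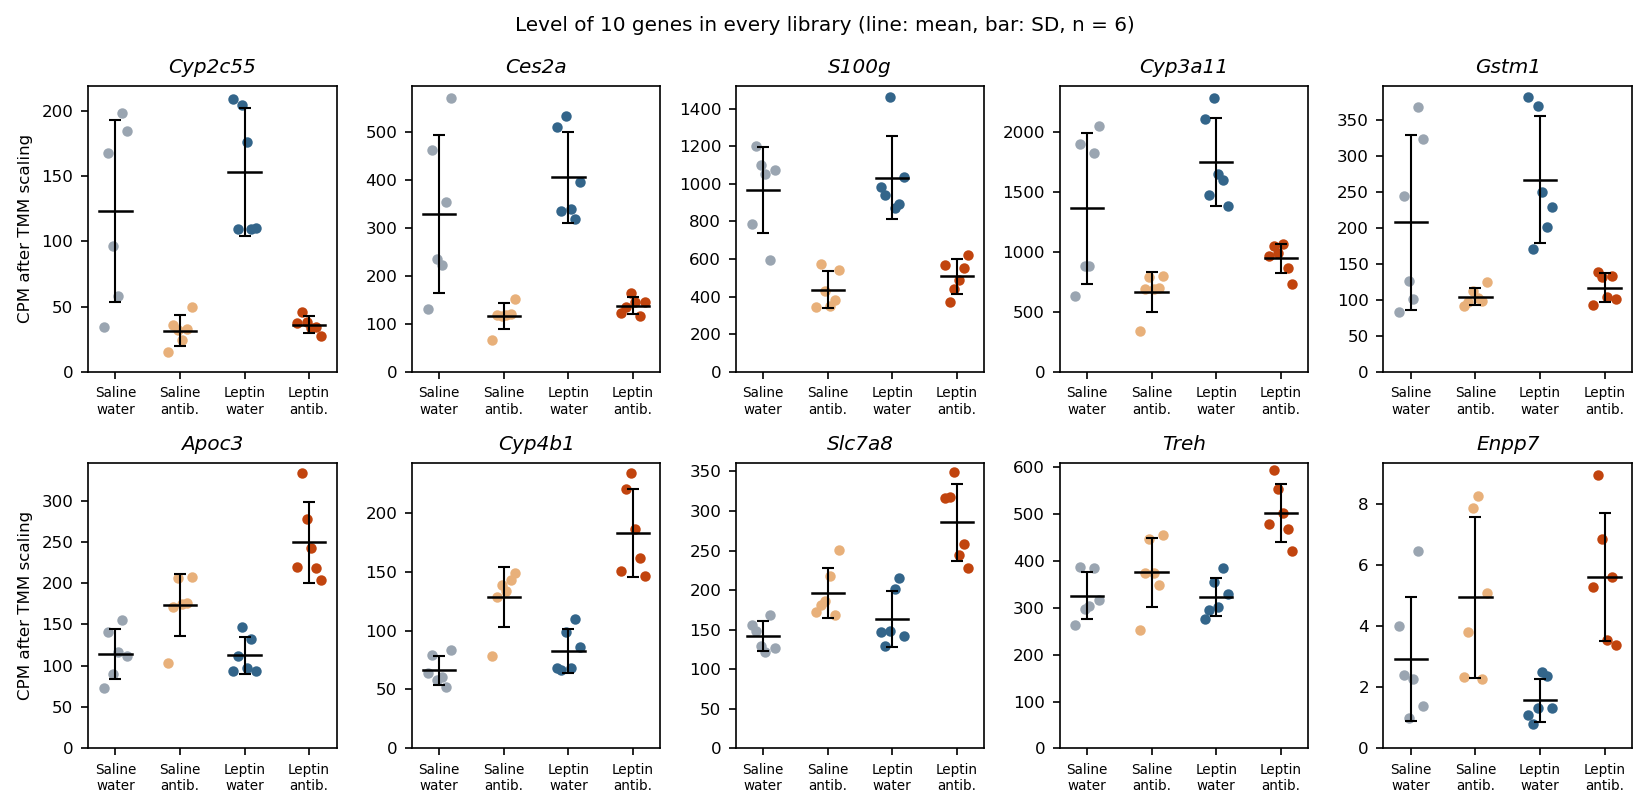
CPM after TMM scaling (vertical axes, from 0) of 10 genes in every library of the 4 groups, with the mean as a line and the SD as a bar (n = 6). In leptin mice the antibiotic libraries lie wholly below the water libraries for the 5 upper genes and wholly above for the 5 lower ones.

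Of 28 measured lipid absorption genes 3 rose (1.76% of all genes did), 25 did not pass, 27 were positive and the median was 0.29. Apoc3, an apolipoprotein of chylomicrons that slows their lipolysis (chromosome 9, 46232933 to 46235636, minus strand), had 93.4, 105 and 147 CPM with water and 204, 231 and 333 CPM with antibiotic. Every antibiotic library lay above every water library (log2 1.15, SE 0.18, adjusted p = 0.00294). Its chromosomal neighbour Apoa4, which is secreted with chylomicrons, rose from 3541 ± 806 to 5754 ± 1409 CPM (log2 0.70, adjusted p = 0.0383), with 5 of 6 antibiotic libraries above all water libraries. Apoa1, the main protein of high-density lipoprotein and on the other side of Apoc3, had a value of 0.55 (adjusted p = 0.0589). Dgat1, which makes triglyceride, rose from 432 ± 38 to 543 ± 31.4 CPM (log2 0.33, adjusted p = 0.0458). Of the list 1 gene, Apoc3, passed without Leptin-water 8, 9, 11 or 13, without Leptin-antibiotic 2, 3 or 4, with upper quartile scaling and with no filter, 5 passed without Leptin-water 12 or without Leptin-antibiotic 5, and 10 passed with the means of the pancreas, stomach and smooth muscle lists as covariates.

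Cyp4b1, a P450 of fatty acid hydroxylation (chromosome 4, 115624725 to 115647723, minus strand), had 66.1, 77.3 and 110 CPM with water and 146, 174 and 234 CPM with antibiotic. The groups did not overlap (log2 1.14, SE 0.16, adjusted p = 0.00227). Reads of its pseudogene Cyp4b1-ps2, which was also called higher, may be shared with it. Acsl6, an acyl-CoA synthetase, rose from 13.1 ± 4.23 to 26.7 ± 2.66 CPM (log2 1.03, adjusted p = 0.0314). Faah, which degrades fatty acid amides such as anandamide, rose from 114 ± 14.4 to 166 ± 24.7 CPM (log2 0.54, adjusted p = 0.00294). Enpp7, the alkaline sphingomyelinase of the brush border (chromosome 11, 118988188 to 118993221, plus strand), had 0.803, 1.32 and 2.5 CPM with water and 3.38, 5.45 and 8.96 CPM with antibiotic. This was a 3.59-fold rise without overlap at a low level (log2 1.84, SE 0.43, adjusted p = 0.0286). Slc10a2, the bile acid transporter whose main site is the ileum, rose from 1.47 ± 0.463 to 2.60 ± 0.604 CPM (log2 0.83, adjusted p = 0.0457). Enpp7 and Slc10a2 were the 2 that passed of 10 bile acid genes, where 1.76% of all genes rose. With each of the 12 libraries left out in turn, Enpp7 passed in 6 fits and Slc10a2 in 4. Without the libraries high in pancreas genes Enpp7 did not pass (adjusted p = 0.0683) and Slc10a2 did (adjusted p = 0.0185). Nr0b2, the nuclear receptor also called SHP, had a value of 0.63 (adjusted p = 0.0816).

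Transporters and peptidases of protein digestion were mostly higher with antibiotic. Of 20 measured members of the amino acid and peptide uptake list 7 rose (1.76% of all genes did), 0 fell and 19 were positive, with a median log2 fold change of 0.38. Slc7a8, a neutral amino acid exchanger of the basolateral membrane (chromosome 14, 54722209 to 54781946, minus strand), had 130, 148 and 215 CPM with water and 228, 287 and 350 CPM with antibiotic. The groups did not overlap (log2 0.80, SE 0.13, adjusted p = 0.00322). Slc16a10, which exports aromatic amino acids, rose by 0.57 on the log2 scale (adjusted p = 0.0127). Pepd, which splits dipeptides ending in proline, rose by 0.58 (adjusted p = 0.0129). Slc7a7, the light chain of a cationic amino acid exporter, and Slc3a2, the heavy chain it pairs with, rose by 0.37 and 0.39 (adjusted p = 0.031 and 0.0433). Slc43a2 and the brush border protease subunit Mep1a rose by 0.44 and 0.52 (adjusted p = 0.0386 and 0.0391). Slc6a19, the main apical neutral amino acid transporter, had a value of 0.43 (adjusted p = 0.0599). The number passing was 1 without Leptin-water 8 or without Leptin-water 9, 3 without Leptin-antibiotic 2, 4 without the libraries high in pancreas genes, 3 with upper quartile scaling and 10 with the tissue covariates, and 19 of 20 were positive in each.

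Sugar digestion genes had a median of 0.39, with 19 of 20 positive and 2 past the test, both higher. Of all genes 47.8% were positive and 1.76% were called higher. Treh, the trehalase of the brush border (chromosome 9, 44673233 to 44686305, plus strand), had 276, 316 and 385 CPM with water and 421, 490 and 594 CPM with antibiotic, without overlap (log2 0.63, SE 0.12, adjusted p = 0.00655). Slc2a7, a hexose transporter, rose by 0.44 (adjusted p = 0.0466). The number passing was 1 without Leptin-water 8, 9, 11 or 13 or without Leptin-antibiotic 1, 2 or 3, and 8 without Leptin-water 12. The fructokinase gene Khk had a value of 0.40 (adjusted p = 0.0509), the sodium-glucose family member Slc5a4a 1.14 (adjusted p = 0.0514), lactase (Lct) 0.70 (adjusted p = 0.0685) and sucrase-isomaltase (Sis) 0.23 (adjusted p = 0.56). The villus enterocyte list moved the same way, though it is not separate, since it shares members such as Apoa1 and Apoa4 with the lipid absorption list. Of its 18 members 17 were positive, with a median of 0.26. Its summed level, which includes Apoa4, was 20100 to 28300 CPM with water and 25000 to 35700 CPM with antibiotic. Apoa4, already counted among the lipid genes, was its 1 member past the test. The stem cell and Wnt list had 12 of 16 negative members, a median of −0.12 and 0 past the test, among them Rnf43 (−0.36, adjusted p = 0.0554), Axin2 (−0.36, adjusted p = 0.107) and Lgr5 (−0.27, adjusted p = 0.291). The part of cell composition in these values was not tested.

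**Figure D4:**
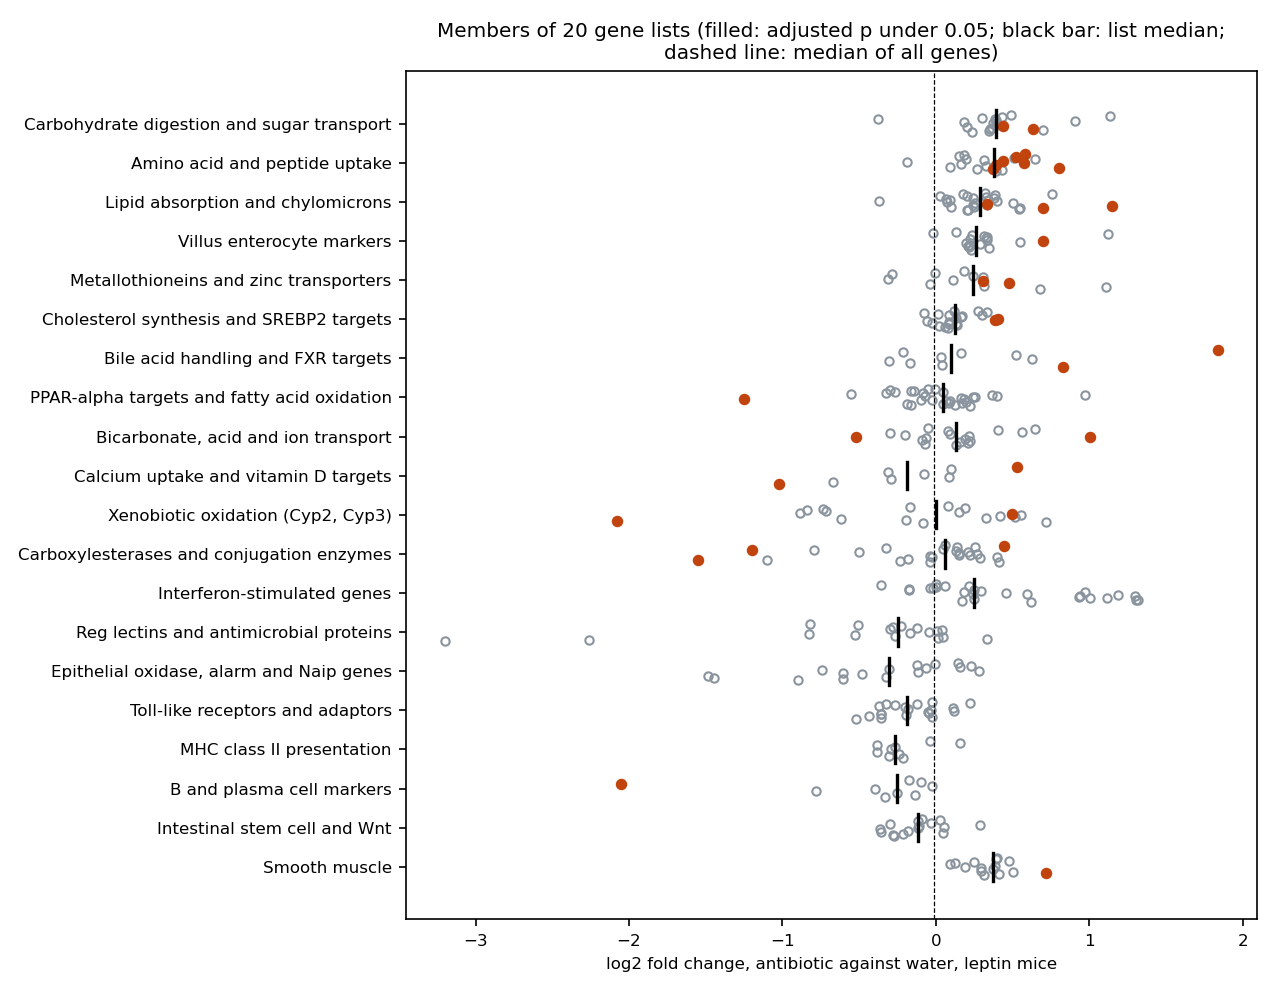
Log2 fold change of antibiotic against water in leptin mice (horizontal axis) for the measured members of 20 lists (rows), filled where adjusted p was under 0.05, with the list median as a bar and the median of all genes as a dashed line. Sugar, amino acid and lipid lists have medians of 0.39, 0.38 and 0.29, and the antimicrobial list spreads down to −3.20 with no filled point.

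Msmo1, a sterol C4 oxidase of cholesterol synthesis, rose from 54.6 ± 3.89 to 72.4 ± 7.41 CPM without overlap (log2 0.41, adjusted p = 0.0195). Of 13 zinc genes 2 rose, against 1.76% of all genes. They were the vesicular exporters Slc30a2 (log2 0.48, adjusted p = 0.015) and Slc30a4 (0.31, adjusted p = 0.0391). With each of the 12 libraries left out in turn, Slc30a2 passed in 10 fits and Slc30a4 in 3. The metallothioneins Mt1 and Mt2 had values of 0.68 and 1.11 (adjusted p = 0.0703 and 0.0783).

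The antimicrobial lectins Reg3b and Reg3g had lower values with antibiotic, without overlap between the groups, and did not pass in the fit of 24 libraries. Reg3b, a lectin that binds bacteria, had 27.9, 137 and 225 CPM with water and 2.98, 14.8 and 26.0 CPM with antibiotic. Reg3g, its relative, had 30.9, 87.2 and 180 CPM with water and 11.4, 18.9 and 28.6 CPM with antibiotic. For both, every antibiotic library lay below every water library, among which Leptin-water 12 was the lowest. Their log2 fold changes were −3.20 (SE 1.27, adjusted p = 0.178) and −2.26 (SE 0.98, adjusted p = 0.22). When only the 12 leptin libraries were fitted, both passed (adjusted p = 0.021 and 0.0159), and both passed with limma voom (0.0329 and 0.0416). The fit of 24 libraries includes Saline-water 9, which had 7107 CPM of Reg3b against 24.8 to 265 in the other Saline-water libraries, and its part in the result was not tested. Of the 18 Reg and antimicrobial genes 13 were negative and 0 passed in the fit of 24 libraries, with a median of −0.25.

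Of 17 oxidase, alarm and Naip genes 13 were negative (median −0.31) and 0 passed, among them Duox2, the epithelial peroxide-forming oxidase (−0.90, adjusted p = 0.371), and Nos2, the inducible nitric oxide synthase (−1.45 without overlap, adjusted p = 0.224, and 0.0291 with the 12 libraries alone). Naip1, a sensor of bacterial secretion needles, had a value of −0.31 (adjusted p = 0.0599). Of 20 Toll-like receptor genes 17 were negative (median −0.19) and 0 passed, with Tlr1 at −0.52 (adjusted p = 0.0556). Of 9 MHC class II genes 8 were negative (median −0.27) and 0 passed. H2-Ab1 had 133 ± 28.3 and 107 ± 31.8 CPM (adjusted p = 0.67) and its activator Ciita a value of −0.38 (adjusted p = 0.265). Ms4a1, which encodes the B cell antigen CD20, had 0.252, 0.368 and 0.470 CPM with water and 0.0239, 0.0785 and 0.169 CPM with antibiotic. It fell without overlap (log2 −2.05, SE 0.40, adjusted p = 0.00679), at levels of few reads a library at which DESeq2 gave no adjusted p, and all 9 B and plasma cell markers were negative, with a median of −0.26. With the tissue covariates 4 of the 9 were positive. Mefv, the pyrin gene of the inflammasome, and Cd46, a complement regulator, fell by 0.85 and 0.79 on the log2 scale (adjusted p = 0.0209 and 0.0313), and Ikbkg, the regulatory subunit of the IKK complex, fell by 0.34 (adjusted p = 0.015).

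Interferon-stimulated genes pointed the other way. Of 27 genes 21 were positive with a median of 0.25, 10 had an unadjusted p under 0.05 and 0 passed. Apol9a and Apol9b, near-identical apolipoprotein L genes that share reads and that are known to respond to interferon, were outside that list and passed. Apol9b, which had the largest rise among genes named by rule, had 4.52, 5.72 and 10.8 CPM with water and 7.91, 23.0 and 64.8 CPM with antibiotic. The groups overlapped, with 5 of 6 antibiotic libraries above all water libraries (log2 1.95, SE 0.42, adjusted p = 0.0204). Apol9a rose by 1.63 on that scale (adjusted p = 0.0321). Isg15 (1.32, adjusted p = 0.0795), Usp18 (1.19, adjusted p = 0.0816), Oas1a (1.00, adjusted p = 0.0611) and Ddx60 (0.97, adjusted p = 0.104) did not pass. Leptin-antibiotic 2 was the highest library for Apol9a, Apol9b, Isg15, Usp18 and Ddx60. Without it neither Apol9 gene passed, at log2 1.13 and 1.47, and the median of the interferon list was 0.10 with 18 of 27 positive. Of 21 alternative fits, Apol9a did not pass in 9 and Apol9b in 6. Both also failed with the tissue covariates, with the 12 leptin libraries alone and without the libraries high in pancreas genes. The same held without Leptin-water 9 and without Leptin-water 11.

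Further rises among genes named by rule were those of Gpr151, an orphan receptor (5.39 ± 1.90 to 15.4 ± 3.08 CPM, log2 1.51), Pappa2, a protease of insulin-like growth factor binding proteins (log2 1.49), Ccdc170 (1.38), Susd2 (1.16) and Apln, the ligand of the apelin receptor (0.97), with adjusted p of 0.00294 to 0.0251. By p they were led by Arsa, the lysosomal arylsulfatase A (26.4 ± 2.07 to 38.2 ± 4.48 CPM, log2 0.53), Ndufb10, a subunit of respiratory complex I (log2 0.43), and Amn, a subunit of the receptor for intrinsic factor and vitamin B12 (log2 0.63), each with adjusted p = 0.00227. Further falls were those of Adgrf1, an adhesion receptor (log2 −0.77), Zfp202 (−0.69), Lncpint (−0.69), Rgs11 (−0.67), Thumpd2 (−0.59), Cbx7, a Polycomb subunit (−0.36), and Osbpl9, a lipid transfer protein (−0.29), with adjusted p of 0.0114 to 0.036. Actg2, the gamma actin of visceral smooth muscle, rose from 74.1 ± 17.4 to 122 ± 13.9 CPM (log2 0.72, adjusted p = 0.015). All 15 smooth muscle genes were positive (median 0.37), the mean of that list was 5.22 to 6.27 log2 CPM with water and 5.90 to 6.55 with antibiotic, and with the tissue covariates, which hold this list, 8 of 15 were positive.

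Of the 42 lists 27 had 0 members past the test, among them the leptin receptor, JAK-STAT feedback and immediate early genes (15 of 25 positive, median 0.04). Lepr had a value of −0.43 (adjusted p = 0.189), Socs3, the feedback inhibitor of leptin signalling, −0.19 (adjusted p = 0.655), and Fos 0.04 (adjusted p = 0.943). The glucocorticoid list (11 of 20 positive, median 0.05) held Fkbp5 at 0.32 (adjusted p = 0.65) and Tsc22d3 at 0.35 (adjusted p = 0.249). The clock list (16 of 21 positive, median 0.15) held Per1 at 0.10 (adjusted p = 0.808), Hlf at 0.83 (adjusted p = 0.102) and Usp2 at 0.48 (adjusted p = 0.0719). Of 18 goblet cell and mucin genes 9 were positive. Muc2, the secreted gel mucin, had 1387 ± 203 and 1595 ± 150 CPM (adjusted p = 0.328), and the membrane mucins Muc3 and Muc4 had values of 0.69 and −0.65 (adjusted p = 0.0567 and 0.0847). Cck, the enteroendocrine hormone of fat sensing, had 25.9 ± 4.95 and 24.7 ± 4.34 CPM (adjusted p = 0.836).

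In saline mice the same antibiotics were associated with 29 called genes (0.177%), 18 higher (0.11%) and 11 lower (0.0673%). The comparisons share no library, though they share the estimate of spread. Called in both were 20 genes, which is 5.78% of those called in leptin mice and 69.0% of those called in saline mice, and each had the same direction in both. The 6 lower ones were Cyp2c55, Ces2a, S100g, Shroom1, Osbpl9 and Fryl. The 14 higher ones included Cyp4b1, Car4, Pappa2, Npr3, the clearance receptor of natriuretic peptides, Glud1, the glutamate dehydrogenase, and Abat, the GABA transaminase. They further held Akr1c13, Rgn, Ano6, Prr15, Larp1b, Gltpd2, Ppp1r3g and Tmigd1. The naming rule picked none of these, nor Npr3, Glud1, Abat, Shroom1 or Fryl. Cyp2c55 had 123 ± 69.7 CPM in Saline-water and 31.6 ± 11.6 CPM in Saline-antibiotic (log2 −1.96, adjusted p = 0.0278), next to −2.08 in leptin mice. In saline mice Ces2a fell by 1.51 (adjusted p = 0.0128) and S100g by 1.15 (adjusted p = 0.00714) on the log2 scale. When the 12 saline libraries were fitted alone, 0 genes were called with edgeR (1575 at an unadjusted p under 0.05), and without the libraries high in pancreas genes, of which 3 are Saline-antibiotic, 19 were called, 8 of them among the 29.

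Of the 288 genes higher with antibiotic in leptin mice, 274 (95.1%) were also positive in saline mice, against 51.8% of all genes, and 155 (53.8%) were positive at an unadjusted p under 0.05, against 6.68% of all genes. Of the 58 lower genes 50 (86.2%) were negative in saline mice, against 48.2% of all genes, and 25 (43.1%) were so at an unadjusted p under 0.05, against 5.58%. The median log2 fold change of the 288 was 0.37 in leptin mice, where they were chosen, and 0.18 in saline mice, and that of the 58 was −0.53 and −0.26. The difference of the antibiotic effect between leptin and saline mice was tested directly, and 0 genes passed with edgeR (lowest adjusted p 0.786, 1011 genes at an unadjusted p under 0.05), with DESeq2 (1094) or with limma voom (1206). The smallest p-values of that test in the positive direction belonged to Inpp5b, Ankrd9 and Uap1l1, of which Uap1l1 had 0.52 in leptin and −0.02 in saline mice. In the negative direction they belonged to Mblac2, Sh2d4a and Fer, of which Mblac2 had −0.57 and 0.16. Apoc3 had 1.15 in leptin and 0.60 in saline mice, a difference of 0.55 (SE 0.25, adjusted p = 0.786), and Treh had 0.63 and 0.21 (difference 0.43, SE 0.17, adjusted p = 0.786).

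**Figure D5:**
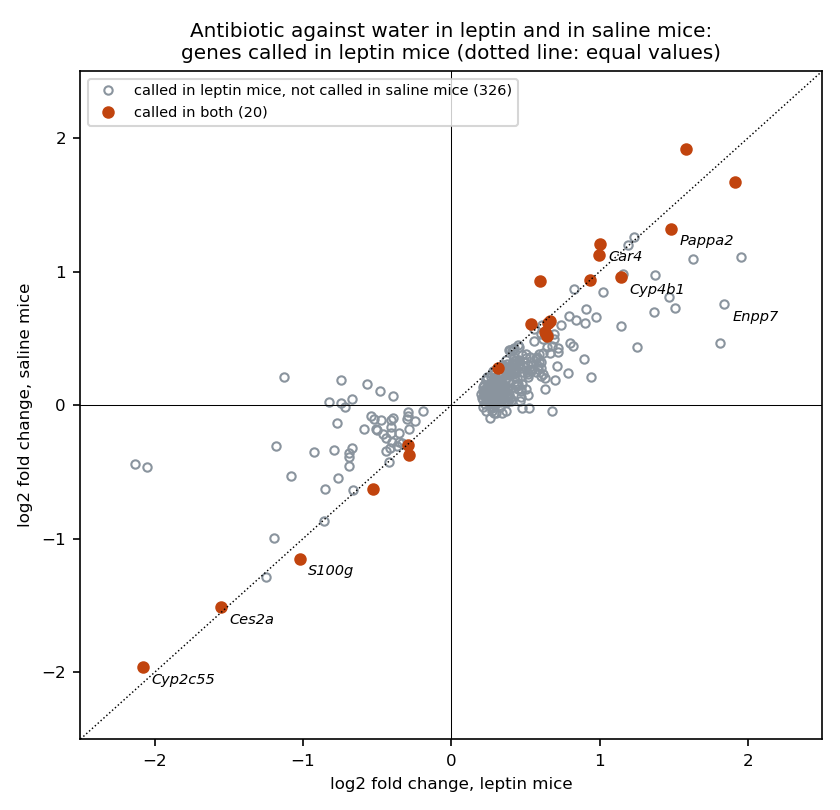
Log2 fold change of antibiotic against water in saline mice (vertical axis) against that in leptin mice (horizontal axis) for the 346 genes called in leptin mice, with a dotted line of equal values. The 20 filled genes were called in both comparisons, and 274 of the 288 higher and 50 of the 58 lower genes have the same sign in both.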

How the data were processed

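Stranded, ribosomal RNA-depleted total RNA from whole duodenum was sequenced in paired-end mode, per the labels' protocols. The authors deposited a table of read counts for 16358 genes. Per the submitters' processing notes, the tools were FastQC for read quality, HISAT2, featureCounts and edgeR 3.42.0, and the build was mm10. How the table was filtered, and with which annotation and strand option reads were counted, is not given in the sources consulted.

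From these counts, 24 libraries (4 groups of 6) were fitted with edgeR 4.0.16 (R 4.3.3, robust quasi-likelihood F test, TMM scaling). filterByExpr kept 16340 genes, and p-values were adjusted over all of them (Benjamini-Hochberg, 0.05). Levels are CPM, counts scaled to a common library total, after TMM, and list means are of log2 CPM with a prior count of 2. The SE of a log2 fold change is its size divided by the square root of F. The fit was tested on simulated data with 200 changed genes. Alternatives used DESeq2 1.42.0, limma 3.58.1 (voom with quality weights), other scalings, no filter, tissue lists as covariates, fewer libraries, and each library left out. Libraries with a pancreas list mean above 4 were left out in one of them.

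Genes were named by rule: by fold, the 12 highest and 12 lowest of those called whose mean log2 CPM reached 1, by p 4 more in each direction, called members of the lists, up to 4 members of a list with the lowest p, and genes fixed by name. Others named were chosen after their values were seen. The members and the lists were chosen with earlier results of these data known. Positions are those of GENCODE vM21, matched by symbol (15967 symbols, 97.6%). Promoters are from RefSeq. Precision is set by the spread between libraries and, for genes of few reads, also by counting error. Some results are not reported here.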

Additional observations from a re-analysis of the deposited data

Results flagged for a closer look

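For each gene named here and each of the leptin groups, the highest and lowest library were set against the other libraries of the group. A library is given where its gap to the nearest library exceeded, as a share of the group's range, Dixon's 95% value for 6 samples. This held in 19 of 274 cases (6.93%), where chance gives about 1 in 20.

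Leptin-antibiotic 2 stood apart in 7 genes. It was highest for Apol9a (104 CPM, next library 41.5), Apol9b (64.8, next 27.2), Isg15 (58.8, next 22.9), Usp18 (54.7, next 19.7) and Ddx60 (305, next 130), which respond to interferon. It was also highest for Faah (213 CPM, next 171) and lowest for Muc4 (60.6, next 69.9).

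Leptin-antibiotic 3, the antibiotic library high in pancreas genes, was highest for Car4 (55.0 CPM, next 37.9), Abat (188, next 149), Sdhc (272, next 230), Cyp4f40 (61.9, next 54.7) and the lysozyme gene Lyz2 (73.4, next 46.7). It was lowest for Larp1b (82.0 CPM, next 97.5). Leptin-antibiotic 5 was highest for Cwh43 (22.3 CPM, next 7.01), a gene that did not pass the test.

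Among the water libraries, Leptin-water 10 was highest for S100g (1460 CPM, next 1040), in the direction of the antibiotic difference. The next library was still above the highest antibiotic library (622 CPM). Leptin-water 12 was highest for Slc5a4a (45.0 CPM, next 25.2) and Slc6a19 (649, next 510) and lowest for Apln (0.941, next 1.30). Leptin-water 11 was highest for Nos2 (3.28 CPM, next 1.31).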

How the results depend on the processing

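In leptin mice 346 genes were called, against 787 with DESeq2, 1394 with limma voom, 225 with upper quartile scaling (62.7% higher, against 83.2%), 210 without the libraries high in pancreas genes, 1127 with the tissue lists as covariates and 548 when only the 12 leptin libraries were fitted (297 shared). RLE factors gave 313, no filter 258 and no robust estimation, an alternative chosen after seeing the data, 372. Leaving out 1 library gave 66 (Leptin-water 9) to 496 (Leptin-water 12). In saline mice 29 genes were called, against 183 with DESeq2, 81 with voom, 19 without the libraries high in pancreas genes, 206 with covariates and 0 with the 12 saline libraries alone. Leaving out 1 library gave 13 (Saline-water 10, Saline-antibiotic 2 or Saline-antibiotic 4) to 98 (Saline-water 9), and 16 without Saline-water 12, 19 without Saline-antibiotic 5 and 45 without Saline-antibiotic 3. The difference between leptin and saline mice had 0 calls in every alternative run. All 346 genes kept their sign in every fit but that of the 12 libraries, where 344 did, and 58 were called in all fits. None of the 79 called genes named here changed sign, and 30 of them were called in every alternative that gave an adjusted p. Among genes that did not pass, Fos was −0.012 with upper quartile scaling and −0.0609 (without Leptin-water 8) to 0.118 (without Leptin-water 9), and −0.00442 without Leptin-water 12, when 1 library was left out, Fkbp5 was −0.0972 with covariates, and Cck was 0.0752 with covariates and −0.133 (without Leptin-antibiotic 1) to 0.0132 (without Leptin-water 10) when 1 library was left out. The causes were not tested. No paired analysis was possible because the groups compared share no replicate numbers (1 to 6 against 8 to 13). Low genes such as Ms4a1 rest on few reads, which limits their precision.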

Other observations

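Other gene groups, defined by the start of their symbols, and further single genes were chosen after their values were seen and are given with no test of the group. Of 85 measured subunits of the respiratory chain and ATP synthase, 83 had positive values with antibiotic in leptin mice and 5 rose (5.88%, against 1.76% of all genes). Their median log2 fold change was 0.22, against −0.01 for all genes. Cox6a1, a subunit of cytochrome c oxidase, rose from 186 to 263 CPM (log2 0.50, adjusted p = 0.00381 with edgeR). Atp5h, of the ATP synthase, rose by 0.30 (adjusted p = 0.026), Sdhc, of succinate dehydrogenase, by 0.28 (adjusted p = 0.0347) and Ndufs7, of complex I, by 0.24 (adjusted p = 0.0483). Between 82 and 84 of the 85 were positive under the alternatives, with 2 to 45 past the test. Of 366 zinc finger genes whose symbols start with Zfp, 65 were positive, 4 fell (1.09%, against 0.355% of all genes) and 0 rose, with a median of −0.14. Under the alternatives 37 to 93 of them were positive, 0 to 19 fell and 0 to 2 rose.

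Of 310 solute carriers 22 rose (7.1%, against 1.76% of all genes), 0 fell, 133 had negative values and the median was 0.07. Between 3 and 42 rose under the alternatives. Those that rose included Slc5a11, which carries inositol with sodium (66.0 to 107 CPM, log2 0.69, adjusted p = 0.00378), and Slc23a1, the ascorbate transporter (log2 0.62, adjusted p = 0.0288). Single peptidase genes that rose were Naaladl1 (60.0 to 106 CPM, log2 0.82, adjusted p = 0.00366, without overlap), Xpnpep2, an aminopeptidase for proline-containing peptides (15.6 to 26.0 CPM, log2 0.74, adjusted p = 0.00523), Cndp2 (log2 0.68, adjusted p = 0.0114) and Dpep1 (log2 0.62, adjusted p = 0.0396). Of 14 Cyp4 genes 3 rose (21.4%, against 1.76% of all genes), 7 had negative values and the median was −0.011, near that of all genes. The 3 were Cyp4b1, Cyp4f14, which hydroxylates leukotrienes (538 to 817 CPM, log2 0.60, adjusted p = 0.0114), and Cyp4f40 (log2 0.28, adjusted p = 0.0429). With each of the 12 libraries left out in turn, Cyp4b1 passed in all 12 fits, Cyp4f14 in 10 and Cyp4f40 in 4. Guca2b, the gut hormone uroguanylin, rose from 245 to 456 CPM (log2 0.90, adjusted p = 0.0224).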
